A study of Mus musculus with 6 samples.

Results

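The 10 genes described here are markers of the intercalated cells of the collecting duct and connecting tubule, measured by RNA-Seq of whole mouse kidneys. They were chosen by gene symbol, from a list proposed when the authors' comparison of the same kidneys was already known, so that their inclusion is itself no result. All 10 were found among 23276 genes with a symbol, and they account for 33 of the 54721 transcript entries in the authors' table. Of the 6 kidneys, 3 carried KspCre and *Pkd1* F/RC (SKO, single knockout) and 3 carried KspCre, *Pkd1* F/RC and miR17~92 F/F (DKO, double knockout), all taken at postnatal day 22 by the labels. In both groups 1 *Pkd1* allele was floxed and the other held the hypomorphic RC mutation, and the Ksp/Cre transgene, active in renal tubules, was present. Kidneys without Cre were not analysed here. The cells in which *Pkd1* or the miRNA cluster had been recombined were not separated from the rest of the kidney.

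The table gives 1 mean abundance for each transcript over the 6 kidneys, as log2 of CPM (read counts scaled to a common library size), and no value for a single kidney. The levels below are therefore the authors' means, with no SD, and the depth of each library is unknown. The table's other 4 numeric columns are the authors' own comparison of DKO with SKO kidneys and were not used. The difference between the groups was not tested here, since a test needs counts for each kidney, and every level below mixes both genotypes. In whole-kidney RNA, fewer cells of a type and less RNA per cell cannot be told apart.

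Intercalated cells adjust the acid-base balance of the body. The type A cell pumps protons into the urine with a vacuolar proton pump (V-ATPase) on its apical membrane and returns bicarbonate to the blood through the anion exchanger AE1. The type B cell secretes bicarbonate into the urine through the anion exchanger pendrin and carries the pump mainly on the opposite side. The transcription factor FOXI1 is required for both types to form, and loss of single genes in this group causes distal renal tubular acidosis in people.

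All 10 genes were detected. Where a gene had several entries, its highest entry is given in CPM, and those values ran from 17.7 CPM for *Slc26a4* to 165 CPM for *Atp6v0a4*. Because a longer mRNA yields more fragments, levels of different genes were compared as CPM per kilobase of the RefSeq mRNA. On this scale the median of the 10 genes was 16.3, beside 4.01 for the 12576 genes with at least 1 CPM and a known length, and each of the 10 lay above the latter value. *Atp6v0a4* was the highest of the 10 at 43.2 CPM per kilobase, followed by *Atp6v1b1* at 34.6, *Rhcg* at 24.5, *Atp6v1g3* at 21.8 and *Aqp6* at 18.7. The lower 5 were *Atp6v0d2* at 13.99, *Foxi1* at 12.5, *Slc4a9* at 8.94, *Slc26a4* at 5.77 and *Slc4a1* at 5.08. The 4 proton pump subunits and the 2 channel genes thus stood above *Foxi1* and the 3 anion exchangers, and *Atp6v0a4* exceeded 95.3% of the genes with a known length while *Slc4a1* exceeded 58.1%. With no spread known, the order of neighbours is a description only.

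**Figure D1:**
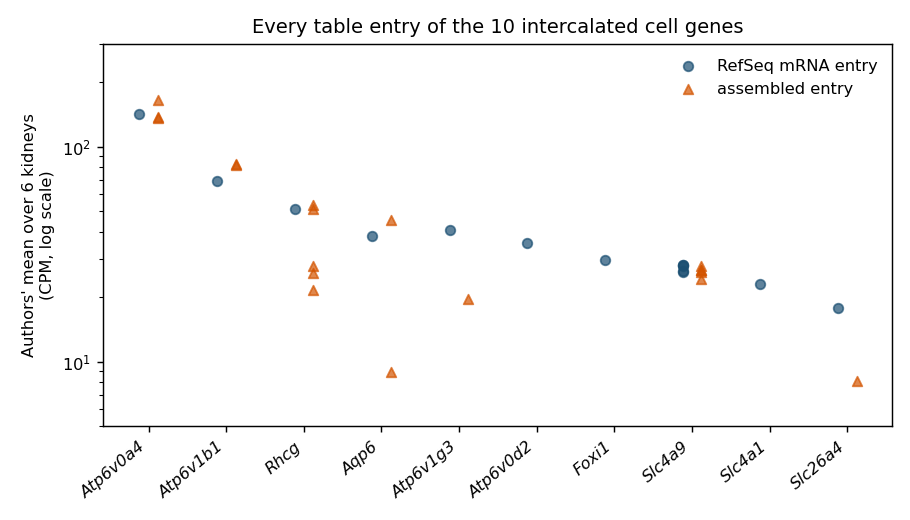
The authors' mean CPM over 6 kidneys (log axis) is plotted for each of the 33 table entries of the 10 genes, with circles for RefSeq mRNA entries and triangles for transcripts assembled from the reads. The scale is not corrected for transcript length. *Atp6v0a4* has entries up to 165 CPM, and the entries of *Aqp6* spread most widely, from 8.91 to 45.6 CPM.

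The 4 proton pump subunits among these genes are forms that intercalated cells use in place of, or beside, forms made in most cells. *Atp6v0a4*, the a4 subunit of the membrane sector, had 4 entries between 136 and 165 CPM. Its RefSeq mRNA stood at 142 CPM. *Atp6v1b1*, the B1 subunit that contributes to ATP binding in the cytosolic sector, had entries of 69.2, 82.4 and 82.6 CPM, the lowest being the RefSeq mRNA. The entries of each of these 2 genes differed by at most 1.21 times. *Atp6v1g3*, the G3 subunit of the stalk, stood at 41.0 CPM in its RefSeq mRNA and at 19.6 CPM in an assembled transcript. *Atp6v0d2*, the d2 subunit that joins the sectors, had a single entry at 35.5 CPM.

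Each of the 4 pump subunits was set beside the other forms of the same subunit. In whole-kidney RNA the cells that made each form are not known. The share that came from intercalated cells was not tested. *Atp6v0a4*, at 43.2 CPM per kilobase, made up 81.9% of the summed level of the 4 a subunits. *Atp6v0a1*, *Atp6v0a2* and *Tcirg1*, which encode the a1, a2 and a3 forms, had 4.25, 2.64 and 2.65 CPM per kilobase. The a4 form thus exceeded a1 by 10.2 times, a2 by 16.4 times and a3 by 16.3 times on this scale. By CPM of the highest entry, with no division by length, the ratio to a2 was 7.02.

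The remaining pump families were divided more evenly or the other way. *Atp6v1b1* had 34.6 CPM per kilobase and *Atp6v1b2*, the B2 form found in most cells, had 29.2. *Atp6v0d2* and *Atp6v0d1* had 13.99 and 16.9 CPM per kilobase. Neither of these orders is resolved, since no error is known and both turned over when CPM of the RefSeq entry was used without the division by length (ratios of 0.838 for B1 to B2 and 1.29 for d2 to d1). *Atp6v1g3* had 21.8 CPM per kilobase, below *Atp6v1g1* at 65.6 and above *Atp6v1g2* at 1.46. G3 accounted for 24.5% of the summed G subunit level on this scale. Its ratio to *Atp6v1g1* was 0.332 per kilobase and 0.552 by CPM with no division by length.

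**Figure D2:**
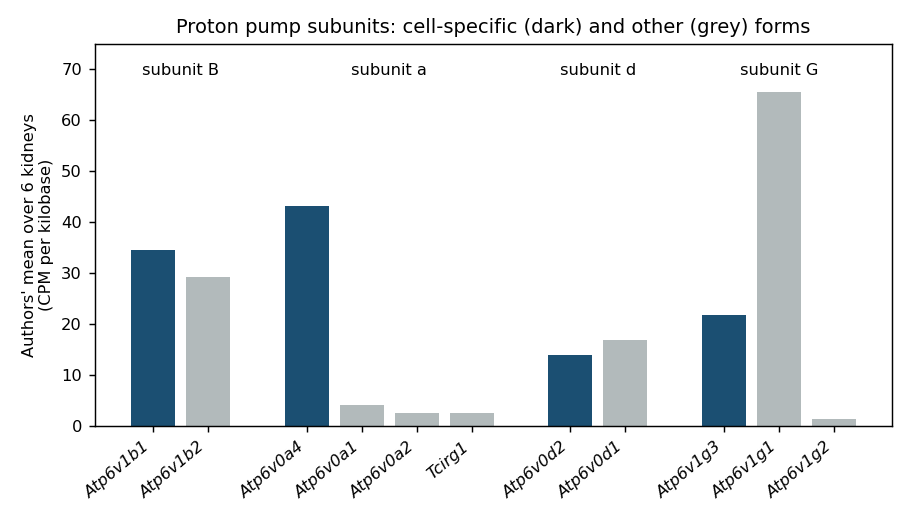
Bars give the authors' mean over 6 kidneys as CPM per kilobase of RefSeq mRNA. They cover the B, a, d and G subunits of the proton pump. The 4 forms from the list of intercalated cell genes are dark and the other forms grey. The cells that made each form are not known. No error bars are drawn because the table holds 1 pooled mean. *Atp6v0a4* at 43.2 lies above its paralogs at 2.64 to 4.25, whereas *Atp6v1g1* at 65.6 lies above *Atp6v1g3* at 21.8.

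The subunits of the pump that have no alternative form among the 10 genes were also abundant. Of 14 further subunit and accessory genes, 13 had at least 1 CPM, and their median was 30.2 CPM per kilobase, beside 16.3 for the 10 intercalated cell genes and 4.01 for the 12576 genes of known length. *Atp6v0c*, which encodes the proton-carrying c ring, was highest of the 14 at 122 CPM per kilobase. *Atp6v1a*, the catalytic A subunit, had 47.6. *Atp6v1e2*, the testis form of subunit E, had under 1 CPM, at 0.0308 CPM.

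The anion exchangers were the lowest part of the group. *Slc4a1* encodes AE1, the chloride-bicarbonate exchanger of type A cells and of red blood cells, and had a single entry at 23.1 CPM. *Slc26a4* encodes pendrin, the apical exchanger of type B cells. Its RefSeq mRNA stood at 17.7 CPM and an assembled transcript at 8.12 CPM. *Slc4a9* encodes AE4, a bicarbonate transporter of the basolateral membrane of type B cells, and its 10 entries were alike, from 24.1 to 28.2 CPM.

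Per kilobase, *Slc4a1*, *Slc26a4* and *Slc4a9* had 5.08, 5.77 and 8.94 CPM. AE4 was the higher of the 2 type B genes, by 1.55 times. *Slc4a1* lay below *Slc26a4* per kilobase and above it before the division by length, by 1.30 times, so the order of the type A and type B exchangers depends on the scale. *Slc26a7*, an anion exchanger of the basolateral membrane of type A cells in the medulla, was lower than all 3 at 0.335 CPM per kilobase. *Slc4a2*, the widely expressed AE2, had 5.78 CPM per kilobase, and *Slc4a4*, the bicarbonate cotransporter of the proximal tubule, had 41.6.

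*Slc4a1* is also a gene of red blood cells, whose RNA a whole kidney contains, and the table's single entry does not separate its erythroid from its shorter kidney transcript. The genes of the red cell lineage were therefore read beside it. Of 12 such genes 9 were found. The haemoglobin genes *Hba-a1* and *Hba-a2* were both listed at 72.9 CPM and *Hbb-b1* and *Hbb-b2* both at 52.6 CPM, equal values that leave the near-identical copies of each pair uncertain. Divided by length, *Hba-a1*, *Hba-a2* and *Hbb-b1* had 104, 132 and 74.9 CPM per kilobase. *Alas2*, the haem synthesis enzyme of red cell precursors, had 10.6 CPM per kilobase, beside 5.08 for *Slc4a1*. The red cell membrane genes *Rhag* and *Rhd* had 0.0193 and 0.0251 CPM per kilobase. *Hba-a1*, *Hba-a2*, *Hbb-b1* and *Alas2* were thus higher than *Slc4a1* per kilobase, whereas *Rhag* and *Rhd* were lower than *Slc4a1* on the same scale. The share of *Slc4a1* RNA that came from red cells was not tested.

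*Foxi1*, the transcription factor of intercalated cells, had 1 entry at 29.6 CPM and 12.5 CPM per kilobase, higher than 82.2% of the genes with a known length. *Foxi2* and *Foxi3*, the other members of the family, both sat at the lowest value of the table. No reads of either were therefore counted. FOXI1 is known to act on the promoters of several of these genes. TGTTTAC and TGTTTGC, forms of the core letters bound by forkhead factors, were therefore sought. The search covered both strands of 300 bases at the RefSeq promoter of each gene. Other forms of that core were not sought, so a promoter without a match may hold one. RefSeq promoters on GRCm38.p6 were matched for 7 of the 10 genes. The *Aqp6* promoter, chr15:99600950-99601249, ended before the GENCODE start of that gene at 99601400, so the bases around that start were not searched. Only *Atp6v1b1* held a match to either form, beside 8.48% of 32851 promoters of all genes. The *Atp6v1b1* promoter is shown for that match, which is a description of letters and no evidence of binding, and lies at chr6:83742767-83743066 on the forward strand with the match in capitals, starting at base 153.

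Atp6v1b1: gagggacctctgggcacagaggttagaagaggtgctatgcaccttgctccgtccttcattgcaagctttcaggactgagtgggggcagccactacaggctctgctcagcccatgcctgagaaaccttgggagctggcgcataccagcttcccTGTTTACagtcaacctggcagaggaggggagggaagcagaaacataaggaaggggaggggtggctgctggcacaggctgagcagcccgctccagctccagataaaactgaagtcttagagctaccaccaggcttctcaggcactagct

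The remaining genes carry ammonia and water or anions. *Rhcg* encodes an ammonia channel of collecting duct cells, which intercalated and principal cells share. Its 6 entries fell into an upper group of 51.1, 51.2 and 53.3 CPM and a lower group of 21.5, 25.9 and 27.9 CPM. The RefSeq mRNA belonged to the upper group. *Rhbg*, the basolateral ammonia channel, had 6.56 CPM per kilobase, and *Rhcg* exceeded it by 3.73 times.

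*Aqp6* encodes an aquaporin kept in vesicles of type A cells, where it conducts anions. Its entries lay at 45.6, 38.5 and 8.91 CPM, the widest spread among the 10 genes, with a ratio of 5.12 between the highest and the lowest. Its neighbours in the aquaporin gene cluster had other levels. *Aqp2*, the vasopressin-regulated water channel of principal cells, had 52.2 CPM per kilobase beside 18.7 for *Aqp6*, and *Aqp5* had 0.291.

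Entries of 1 gene overlap, and the sources used here do not state how a read lying in several of them was counted, so the entries were not summed. Of the 33 entries 14 were RefSeq mRNAs and 19 were assembled from the reads. An assembled transcript was the highest entry for *Atp6v0a4*, *Atp6v1b1*, *Rhcg* and *Aqp6*, and their RefSeq mRNAs stood at 142, 69.2, 51.2 and 38.5 CPM. *Slc4a1*, *Atp6v0d2* and *Foxi1* had a single entry each.

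The genes lie apart in the genome, with positions here taken from GENCODE M21 on GRCm38, the assembly also known as mm10. *Atp6v0a4* (chromosome 6, 38048483 to 38124586, reverse strand, 21 exons) and *Atp6v1b1* (chromosome 6, 83742990 to 83758855, forward strand, 14 exons) share a chromosome at a distance. *Slc4a1* (chromosome 11, 102348824 to 102366203, 20 exons) and *Foxi1* (chromosome 11, 34204338 to 34208089, 2 exons) share another, both on the reverse strand. *Slc26a4* runs on the reverse strand of chromosome 12 from 31519827 to 31559969, *Rhcg* on that of chromosome 7 from 79593363 to 79617657, and *Atp6v0d2* on that of chromosome 4 from 19876841 to 19922605. *Atp6v1g3* runs on the forward strand of chromosome 1 from 138273738 to 138289462, and *Aqp6* on that of chromosome 15 from 99601400 to 99605477. *Slc4a9* is on chromosome 18. The level of *Atp6v0a4* carries a doubt from its neighbours, since its annotated exons share 259 bases with those of *D630045J12Rik* on the same strand and 62 bases with those of *Tmem213* on the other. These genes had 36.3 and 30.2 CPM, and their part in the 165 CPM was not tested.

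Beyond the 10 genes, 14 of 15 other genes known from intercalated cells were found, all with at least 1 CPM. Their median was 5.78 CPM per kilobase, with *Car2*, the cytosolic carbonic anhydrase that supplies protons and bicarbonate, highest at 103 and the insulin receptor-related receptor *Insrr* lowest at 1.72. Several of these genes are not confined to intercalated cells. *Car2* and *Car12* are also made in other tubule cells, and *Bsnd* in the thick ascending limb. *Kit*, a receptor tyrosine kinase, had 3.67 CPM per kilobase and *Dmrt2*, a transcription factor of type A cells, 2.59.

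Markers of other kidney cells set the scale for these levels. The 8 principal cell genes had a median of 27.1 CPM per kilobase, from 7.71 for *Avpr2*, the vasopressin receptor, to 58.4 for *Hsd11b2*, which protects the mineralocorticoid receptor from glucocorticoids. The 6 proximal tubule genes had a median of 42.1, led by the phosphate transporter *Slc34a1* at 423. The 4 genes of the thick ascending limb had a median of 97.9, led by *Umod* (uromodulin) at 374. The 3 genes of the distal convoluted tubule ranged from 1.597 to 43.0 and the 3 podocyte genes from 2.22 to 24.3 CPM per kilobase. Each list was thus present in the RNA, as a kidney label requires, and the 10 intercalated cell genes, from 5.08 to 43.2, overlapped all 6 other lists. Levels of different genes do not give the numbers of cells, since cells differ in how much of each mRNA they hold.

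**Figure D3:**
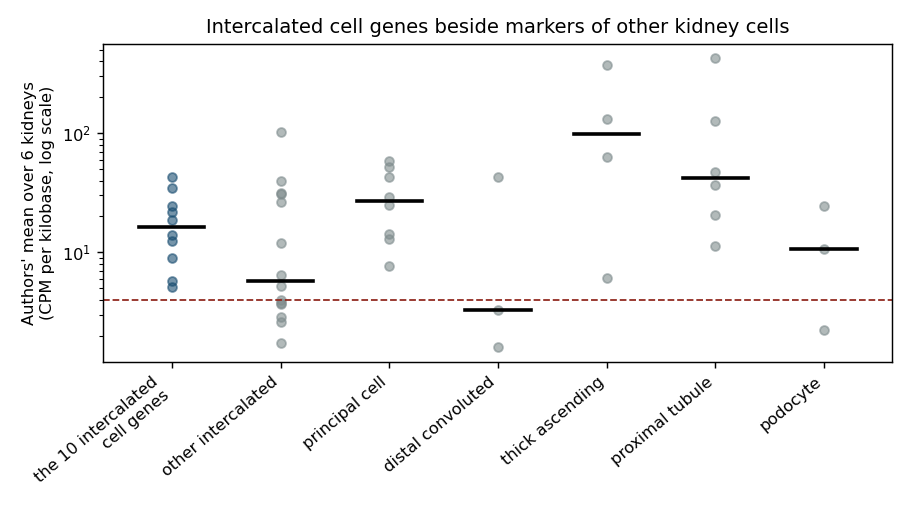
Each point is 1 gene, plotted at the authors' mean over 6 kidneys as CPM per kilobase of RefSeq mRNA (log axis), with a bar at the median of each list and a dashed line at 4.01, the median of all genes with at least 1 CPM and a known length. All 10 intercalated cell genes lie above the dashed line, with a median of 16.3 beside 27.1 for principal cell genes.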

How the data were processed

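Total RNA of 3 SKO and 3 DKO kidneys was made into strand-specific libraries and read from 1 end. After trimming, the authors aligned reads to mm10 with TopHat2 2.0.12, kept those of sufficient mapping quality and used edgeR to compare the groups. The submitters' processing notes name Cufflinks, featureCounts (Subread 1.4.6) and edgeR 3.2.4. Whether featureCounts used strand or counted a read once for each overlapping transcript is not given in the sources used here.

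The deposited log2 values used give the authors' mean abundance of each transcript over the 6 libraries, as log2 of CPM. The table's other 4 numeric columns hold the authors' log2 fold changes, likelihood ratio statistics, p-values and adjusted p-values of DKO against SKO, and were not used. A quasi-likelihood test on counts had been planned for that comparison and was not run, because the table holds no counts of single kidneys. For the same reason depth and errors are unknown.

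Rows were matched on the symbol in the entry name. Each gene was represented by its entry with the highest log2 value, and the log2 values were converted to CPM. An entry without reads sits at 0.0263 CPM, as 4617 entries did, since edgeR adds a small count. Ranks by CPM were taken among the 13001 genes with at least 1 CPM. Ranks by CPM per kilobase were taken among those of known length. CPM per kilobase used the RefSeq mRNA entry with the highest CPM and the length of the GENCODE M21 transcript linked to it, which 12576 of the 13001 genes had. Python 3.11.15, numpy 2.4.6, pandas 2.3.3 and matplotlib 3.10.9 were used.

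The 10 genes and the lists were chosen with earlier results of these data known. The genes named are those 10 genes, their paralogs, the other pump subunits and markers of other cells, and *Tmem213* and *D630045J12Rik*, added because they overlap *Atp6v0a4*. Those 2 genes and the forkhead letters were chosen after the table was seen. Values of 3 listed marker genes are not reported here.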

Additional observations from a re-analysis of the deposited data

How the results depend on the processing

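No paired analysis was possible because single kidneys have no values in the table. For the same reason the alternatives that leave out a replicate, use DESeq2 or change the count filter were not run. With no error to judge by, a level was taken as moved where it changed by over 1.5 times. The levels of all 10 genes stayed within that limit when the RefSeq mRNA entry stood for the gene (17.7 to 142 CPM), when the median over entries did (12.9 to 139 CPM) and when the lowest CPM of the table was subtracted (17.7 to 165 CPM). Much of this was fixed in advance. The RefSeq entry differed from the highest entry in only 4 genes, and 3 genes had a single entry. The CPM subtracted, 0.0263, was small beside every level. The lowest entry of each gene was not tried, and in *Aqp6* it differed from the highest by 5.12 times. Ranks by CPM ran from 61.0% to 98.0% among genes with at least 1 CPM. Among all genes with a symbol, with no filter, they ran from 78.2% to 98.9%. The ranks given in the Results are by CPM per kilobase and are not on this scale. In the order from highest to lowest, CPM per kilobase in place of CPM moved 4 genes by 1 place each, *Slc4a1* to 10, *Slc26a4* to 9, *Atp6v1g3* to 4 and *Aqp6* to 5, and left the other 6 in place.

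Ratios to paralogs were recomputed by alternatives chosen after seeing the data. By CPM of the RefSeq entry, the ratio of *Atp6v1b1* to *Atp6v1b2* turned from 1.18 to 0.838, and that of *Atp6v0d2* to *Atp6v0d1* from 0.830 to 1.29. By CPM of the highest entry these were 1.0002 and 1.29. The ratio of *Atp6v0a4* to *Atp6v0a2* fell from 16.4 to 10.1 by CPM of the RefSeq entry and to 7.02 by the highest entry, and that of *Atp6v1g3* to *Atp6v1g1* moved from 0.332 to 0.552 by both. Unknown depth and unknown spread between kidneys limit every level given here.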
